A study of Mus musculus with 6 samples.

Results

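The mitochondrial respiratory chain was examined in biliary epithelial cells, the lining of the intrahepatic bile ducts, through the 77 nuclear genes named for its subunits that were measurable in the deposited expression table. They are the rows with a mean normalised count of at least 50 over the 6 libraries and a symbol that begins with Ndufa, Ndufb, Ndufc, Ndufs or Ndufv (complex I), is Sdha, Sdhb, Sdhc or Sdhd (complex II), or begins with Uqcr (complex III), Cox4 to Cox8 (complex IV) or Atp5 (complex V). Of 85 names of this form among the 24404 rows, 77 passed: 36 for complex I, 4 for complex II, 8 for complex III, 12 for complex IV and 17 for complex V. Single-end RNA-seq libraries were compared from 3 Klf5 LKO samples (Alfp-CreTg/+;Klf5flox/flox) and 3 control samples (Alfp-Cre+/+;Klf5flox/flox). Every mouse was an adult of the C57BL/6 strain with floxed Klf5 and had received DDC, a diet compound that injures bile ducts, for 1 week, so no uninjured state was measured. Alfp-Cre acts in hepatocytes as well as in biliary cells, and only the Klf5 LKO group carried it, so effects of the Cre transgene and of Klf5 loss cannot be told apart. Whether each library stands for its own animal is not stated in the labels, so p-values measure only how far these samples spread, and some of that spread may be technical.

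The respiratory chain carries electrons from NADH (complex I) or succinate (complex II) through ubiquinone to complex III and on to complex IV, which reduces oxygen to water. Complexes I, III and IV pump protons across the inner mitochondrial membrane, and complex V, the ATP synthase, lets them flow back through a rotating ring while its head makes ATP. Most subunits are encoded in the nucleus, and the few encoded in mitochondrial DNA are not analysed here.

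Klf5 itself, a zinc-finger transcription factor of epithelia and the deleted gene, had 977, 1192 and 1183 normalised counts in Klf5 LKO libraries 1, 2 and 3, against 2056, 2018 and 2316 in control libraries 1, 2 and 3. It fell by 0.93 on the log2 scale (SE 0.14, adjusted p = 0.0103), but the call was lost with the hepatocyte score as a term (adjusted p = 0.0505) and without control 1, 2 or 3 (adjusted p = 0.0671, 0.0702 and 0.0573). Its reads cover the whole gene, so what remained does not measure intact transcript. Total reads were between 17161087 and 24784167 in Klf5 LKO and between 11726934 and 20066745 in control. Biliary markers were abundant in all libraries: Epcam lay between 23402 and 26173 in Klf5 LKO and between 25301 and 28906 in control. Of 15 biliary markers, 10 had the lower mean in Klf5 LKO, and the median log2 fold change was -0.08. In limma 1 was called, the secretin receptor Sctr, which rose (log2 fold change 0.78). DESeq2 called 4: Sctr, the chloride channel gene Cftr (0.58 in limma), and the keratins Krt19 (-0.74) and Krt7 (-0.63). Over all genes with an adjusted p, DESeq2 called 2.48%. Limma's adjusted p was 0.0935 for Cftr, 0.0988 for Krt19 and 0.0720 for Krt7, and the groups overlapped for none of these 4. Of the 15 markers, 2 did not overlap with Klf5 LKO lower and 4 with Klf5 LKO higher, Krt18 and Pkhd1 among the latter. Together these are 40.0%, against 15.6% of all tested genes. Summed hepatocyte markers (20 genes) lay between 17978 and 24128 in Klf5 LKO and between 19599 and 28875 in control, while the hepatocyte urea cycle gene Cps1 stayed at 10.6 or lower in every library. Of the 12 hepatocyte markers tested, 8 had the higher mean in Klf5 LKO, and the median log2 fold change was 0.19. In limma 1 was called lower (Apob, log2 fold change -1.24) and 0 higher, with Tat at 1.62 (adjusted p = 0.230). Summed leukocyte markers (13 genes) lay between 79.0 and 1070 in Klf5 LKO and between 129 and 2158 in control. Summed macrophage markers (11 genes) lay between 1112 and 1577 in Klf5 LKO and between 1470 and 1658 in control, most of it Csf1r. Summed endothelial markers (8 genes) lay between 50.1 and 330.1 in Klf5 LKO and between 120 and 534 in control. Summed stellate and fibroblast markers (9 genes) lay between 34.1 and 86.3 in Klf5 LKO and between 15.6 and 52.8 in control. The groups overlapped for each of these marker sums. The Kupffer cell genes Clec4f and Vsig4, the stellate cell gene Lrat and all 6 globin genes were listed at 0 in every library. In bulk RNA, fewer cells of a type and less RNA per cell cannot be told apart.

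None of the 77 respiratory chain genes was called higher or lower in Klf5 LKO, which does not show that none changed. In limma, fitted over all 13490 genes with a mean of at least 10 and adjusted over them, 0 of 77 were called higher and 0 lower at an adjusted p under 0.05. Over all tested genes 22 (0.163%) were called higher and 66 (0.489%) lower, so 0 of 77 lies near the background share. The lowest adjusted p of the 77 was 0.452, and 1 of 77 had an unadjusted p under 0.05, against 10.9% of all tested genes. DESeq2 on the recovered reads also called 0 of 77, with 1 at an unadjusted p under 0.05, where it called 2.48% of the 13482 genes for which it gave an adjusted p. edgeR called 0 of 77, with 0 at an unadjusted p under 0.05. In the authors' deposited table none of the 77 had an adjusted p under 0.05, the lowest being 0.347, against 2.41% of its 13184 genes with one. Between -0.38 and 0.17 lay the log2 fold changes that the authors' deposited table gives for them.

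For most of the 77 genes the confidence interval was also narrow, as far as the spread of these samples goes. The 95% confidence interval of the log2 fold change lay inside 1.5-fold in both directions for 68 of the 77 genes (88.3%) and inside 2-fold for 75. Inside 1.5-fold lay 38.2% of all tested genes and 67.5% of the 6957 with a mean of at least 500. No set matched to the 77 in count was compared. The median standard error of the 77 was 0.16 on the log2 scale. The 9 genes whose interval reached beyond 1.5-fold were Ndufs6 and Ndufs8 of complex I, Cox6c and Cox7a1 of complex IV, and Atp5g2, Atp5g3, Atp5h, Atp5s and Atp5sl of the complex V names.

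**Figure D1:**
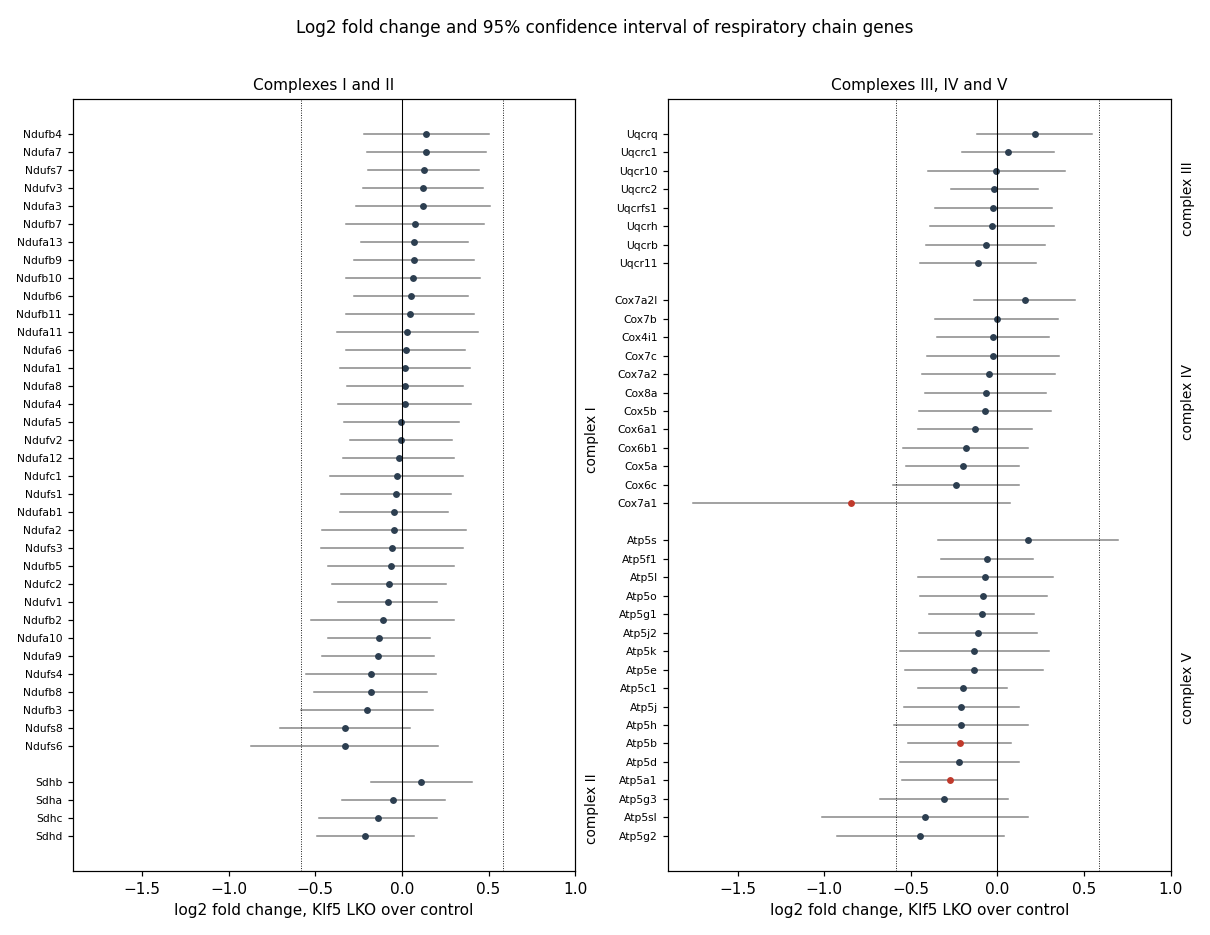
Log2 fold change of Klf5 LKO over control (points) with its 95% confidence interval from limma (lines) for 76 of the 77 respiratory chain genes, by complex; dotted lines mark 1.5-fold, and red points mark Atp5a1, Atp5b and Cox7a1, whose groups did not overlap. Cox7a1, at -0.84, lies farthest from 0, and 16 of the 17 complex V names lie left of 0.

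Direction without size was more one-sided. In Klf5 LKO 56 of the 77 genes (72.7%) had the lower mean log2 value, against 50.8% of all tested genes, and their median log2 fold change was -0.06 against -0.01 for all tested genes. That count rested on single libraries: 32 of 77 were lower without control 1, 38 without Klf5 LKO 2, 42 without Klf5 LKO 1 and 66 without Klf5 LKO 3. With the hepatocyte marker score as a term 69 were lower, and with the leukocyte score as a term 40 were. For 4 genes all 3 Klf5 LKO values lay under all 3 control values (Atp5a1, Atp5b and Cox7a1 among them), and for 0 all lay above. Over all tested genes 7.88% did not overlap with Klf5 LKO lower and 7.72% with Klf5 LKO higher, so 4 of 77 (5.19%) is no more than the background.

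Levels of different genes are compared as normalised counts per kilobase of transcript, averaged over the 6 libraries. The highest of the 77 was Cox6a1, the non-muscle form of a small complex IV subunit, at 10270 per kilobase. Then came Atp5b, the catalytic beta subunit of the ATP synthase head, at 7652, and Cox4i1, the general form of complex IV subunit 4, at 7389. Atp5g2, 1 of 3 genes for the same c ring protein, followed at 6654 with the transcript used. With its longest principal transcript Atp5g2 would stand at 4014, below Ndufa6, Ndufa4, Uqcrb and further genes, among them Uqcrc1 (5187) and Uqcr11 (4211). In complex I the highest was the accessory subunit Ndufa6 at 6432, in complex III the ubiquinone-binding protein gene Uqcrb at 5580, and in complex II the iron-sulphur subunit Sdhb at 2239. The medians per kilobase were 1539 for complex I, 2121 for complex II, 4000 for complex III, 3219 for complex IV and 3148 for complex V. The lowest were Atp5sl at 137, Atp5s at 158 and Cox7a1 at 195 per kilobase. For 6 of the 77 genes (Ndufb2, Ndufab1, Uqcrq, Atp5g1, Atp5g2 and Atp5d) the longest principal transcript was over 1.5 times the one used, and their level per kilobase would be lower with it.

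**Figure D2:**
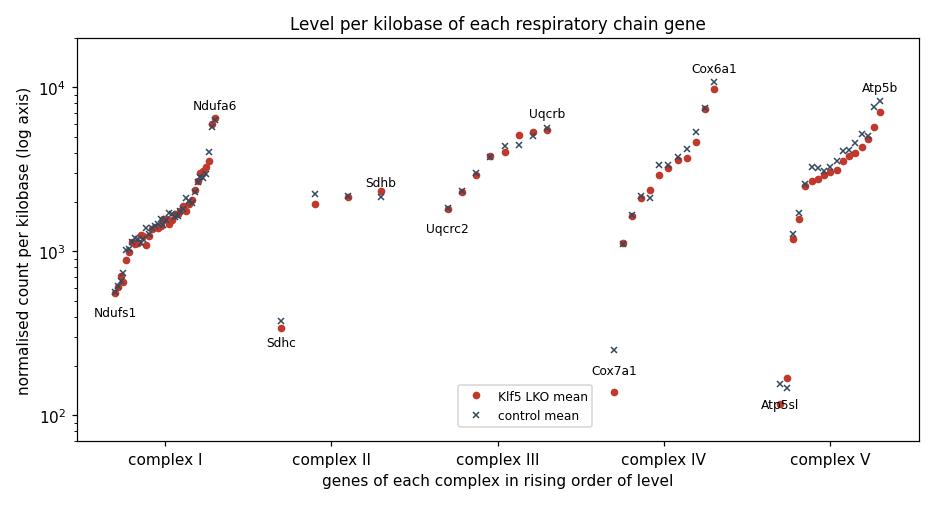
Mean normalised count per kilobase of transcript (log axis) for each respiratory chain gene in Klf5 LKO (red circles) and control (dark crosses), in rising order within each complex; the highest and lowest gene of complexes I to V are named. For most genes circle and cross lie close together, Cox7a1 being the farthest apart, and Cox6a1 (10270 over all 6 libraries) stands highest.

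Some of the subunit genes carry the recognition letters of NRF1 (nuclear respiratory factor 1), a transcription factor known for activating respiratory chain genes. The sequences shown come from part of the 8 genes with such letters, among them Ndufa6 and Cox6a1, the top genes of complexes I and IV. Sdhb, the top gene of complex II, also carries the letters and is not shown. They are stretches of 60 bases from RefSeq (GRCm38.p6), given in the direction of transcription, with the NRF1 letters in capitals. The Atp5l stretch is chr9:44920933-44920992, minus strand. The Cox6a1 stretch is chr5:115349086-115349145, minus strand. The Ndufa11 stretch is chr17:56717677-56717736, plus strand, and the Ndufa6 stretch is chr15:82354341-82354400, minus strand. Annotated exons cover 16 of the 60 bases in Cox6a1, 4 in Ndufa11 and 0 in Atp5l and Ndufa6.
Atp5l: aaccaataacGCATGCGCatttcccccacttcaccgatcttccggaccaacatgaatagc
Cox6a1: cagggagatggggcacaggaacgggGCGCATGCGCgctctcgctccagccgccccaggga
Ndufa11: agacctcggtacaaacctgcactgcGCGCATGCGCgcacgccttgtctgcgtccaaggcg
Ndufa6: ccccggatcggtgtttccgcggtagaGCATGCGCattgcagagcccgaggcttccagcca

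The capitals end 232, 152, 50 and 75 bases before the RefSeq gene start in Atp5l, Cox6a1, Ndufa11 and Ndufa6. The letters searched were GCGCATGC or its reverse complement GCATGCGC, in the 250 bases before the start on both strands, with an overlapping match on the 2 strands counted as 1. RefSeq windows matched 63 of the 77 genes. The letters stood in 8 of the 63 (12.7%), against 692 of 27025 genes of the genome (2.56%). The ETS core CCGGAAG or CTTCCGG, the letters bound by GABPA and other ETS factors, stood in 12 of 63 (19.0%), against 7.83% of all genes. The YY1 core AAGATGGC or GCCATCTT stood in 1 of 63 (1.59%), against 1.83%. The 27025 genes were not limited to those expressed in these libraries or matched for base content, so these shares do not single out respiratory chain genes. A match is only a run of letters and not a measured binding site. The 8 genes with the NRF1 letters had log2 fold changes between -0.44 and 0.11 (median -0.03), and 0 of the 8 were called. Nrf1 itself had 967, 752 and 877 normalised counts in Klf5 LKO, against 807, 1192 and 867 in control, and Gabpa, the ETS factor, 913, 1254 and 1105 in Klf5 LKO, against 1020, 1170 and 913 in control. The groups overlapped for both factors (adjusted p = 0.854 and 0.916).

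Complex I genes were the most evenly split in direction. Of its 36 genes 20 had the lower mean in Klf5 LKO, 0 were called, and the median log2 fold change was -0.01. The 7 core subunits, which hold the flavin and iron-sulphur centres of the electron path, had a median of -0.06, with 6 of the 7 lower. The 29 accessory subunits had a median of 0.01, with 14 lower. Ndufs8, a core iron-sulphur subunit, had 956, 1217 and 1072 in Klf5 LKO, against 1582, 1449 and 1079 in control, and control 3 lay within the Klf5 LKO range. Its log2 fold change was -0.33 (SE 0.17, adjusted p = 0.534). The accessory subunit Ndufs6 spread most within Klf5 LKO, with 625, 984 and 1392, against 1241, 1370 and 1004 in control. Klf5 LKO 1 was the lowest of the 6 and Klf5 LKO 3 the highest, and the log2 fold change of Ndufs6 was -0.33 overall and -0.03 without Klf5 LKO 1.

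Other core genes of complex I lay near 0. Ndufs1, the largest core subunit, had 1642, 1461 and 1216 in Klf5 LKO, against 1534, 1399 and 1462 in control, with Klf5 LKO holding both the highest and the lowest value. Its log2 fold change was -0.03 (SE 0.15, adjusted p = 0.956). Ndufv1, which binds NADH and flavin, had 2055, 2264 and 2638 in Klf5 LKO, against 2358, 2437 and 2534 in control, again fully overlapping (log2 fold change -0.08, adjusted p = 0.874). The highest log2 fold changes of the complex were those of the accessory genes Ndufb4 and Ndufa7, both 0.14. Ndufa6 had 3200, 3593 and 4724 in Klf5 LKO, against 4306, 3401 and 3544 in control, a log2 fold change of 0.02. Ndufa4 carries a complex I name but is now known as a subunit of complex IV. It had 3099, 2993 and 4772 in Klf5 LKO, against 3979, 3286 and 3282 in control, and its log2 fold change was 0.01. Ndufab1, also the mitochondrial acyl carrier protein, was at -0.04.

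Complex II, succinate dehydrogenase, had 3 of 4 genes lower in Klf5 LKO and a median log2 fold change of -0.09, with 0 called. Sdha, its flavoprotein, had 7261, 6168 and 5113 normalised counts in Klf5 LKO, against 6359, 6385 and 6247 in control. The control values were nearly level, while Klf5 LKO held the highest and the lowest value. The log2 fold change of Sdha was -0.05 (SE 0.14, 95% interval -0.35 to 0.25, adjusted p = 0.932). The iron-sulphur subunit Sdhb had 2808, 2346 and 2816 in Klf5 LKO, against 2733, 2393 and 2246 in control (log2 fold change 0.11). Both membrane anchors were on the lower side: Sdhc had 907, 1177 and 1169 in Klf5 LKO, against 1323, 1149 and 1096 in control, a log2 fold change of -0.14. Sdhd had 2296, 2219 and 2626 in Klf5 LKO, against 2821, 2949 and 2493 in control, a log2 fold change of -0.21 (adjusted p = 0.604). The groups overlapped for all 4 genes.

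Complex III, the cytochrome bc1 complex, had 6 of 8 genes lower and a median log2 fold change of -0.02, with 0 called and 0 without overlap. Uqcrc1, a core protein of the matrix side, was the most counted gene of the complex, with 9937, 7810 and 8585 in Klf5 LKO, against 8484, 8470 and 8156 in control. Klf5 LKO again held both extremes, and the log2 fold change was 0.06 (SE 0.12, adjusted p = 0.899). The Rieske iron-sulphur protein gene Uqcrfs1 had 2706, 3018 and 3669 in Klf5 LKO, against 3575, 3346 and 2628 in control (log2 fold change -0.02). Uqcrq, a small ubiquinone-binding subunit, had the highest log2 fold change of all 77 genes, 0.21 (SE 0.15, adjusted p = 0.660). It had 2086, 1942 and 2159 in Klf5 LKO, against 2201, 1639 and 1552 in control, where control 1 was the highest of all 6. The lowest of the complex were Uqcr11 at -0.11 and Uqcrb at -0.07. Uqcrb had 2581, 2561 and 3653 in Klf5 LKO, against 3414, 2922 and 2782 in control.

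Complex IV, cytochrome c oxidase, had 11 of 12 genes lower, a median log2 fold change of -0.07 and 0 called. Its catalytic subunits are encoded in mitochondrial DNA, so all 12 genes are for the nuclear subunits around them. Cox7a1 (chromosome 7, 30184144 to 30186078, plus strand), the heart and skeletal muscle form of subunit 7a, had 64.1, 37.3 and 62.8 normalised counts in Klf5 LKO, against 115, 114 and 68.1 in control. The groups did not overlap, though control 3 lay just above Klf5 LKO 1. The log2 fold change of -0.84 (SE 0.42, 95% interval -1.76 to 0.07) was the largest of the 77 genes in size and did not pass (adjusted p = 0.510). Without Klf5 LKO 2 it was -0.59. Cox7a1 was 1.69, 1.03 and 1.38% of the summed counts of the subunit 7a family in Klf5 LKO, against 2.63, 3.07 and 2.03% in control. Nearly all of the family was Cox7a2, the liver form, and Cox7a2l. Cox7a2 was at a log2 fold change of -0.05 and Cox7a2l at 0.16, and for both the groups overlapped.

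The other complex IV genes overlapped between groups. Cox6c had 1965, 2020 and 3000 in Klf5 LKO, against 3004, 2518 and 2589 in control (log2 fold change -0.24, adjusted p = 0.657). Klf5 LKO 1 and 2 were the lowest of the 6 libraries, and Klf5 LKO 3 was level with the highest control. Cox5a, which sits at the matrix side, had 1556, 1981 and 2110 in Klf5 LKO, against 2433, 1987 and 2045 in control (log2 fold change -0.20, adjusted p = 0.682). Cox4i1 had 4662, 5112 and 6661 in Klf5 LKO, against 6212, 5364 and 5020 in control (log2 fold change -0.03), and Cox6a1 had 4723, 5572 and 6504 in Klf5 LKO, against 7154, 5950 and 5283 in control (log2 fold change -0.13). Cox8a was at -0.07, Cox6b1 at -0.18 and Cox7b at -0.00.

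The 8 names that fell short of the mean of 50 were mostly tissue-restricted isoforms. Ndufa4l2, Cox7b2, Cox8b (a muscle form) and Cox8c (a testis form) were listed at 0 in all 6 libraries, as was Ndufs5, a regular complex I subunit. Since a subunit gene of general use is among them, the listed 0 was not read as absence of transcript for any of the 5. Cox6a2, the heart and muscle form of Cox6a1, was listed at 0 in Klf5 LKO and had 1.84 in control 1 only. Cox4i2, a hypoxia-responsive form of subunit 4, had 12.3, 2.98 and 6.39 in Klf5 LKO, against 10.1, 3.16 and 4.06 in control, between 0.0583 and 0.264% of the Cox4i1 and Cox4i2 sum in Klf5 LKO and between 0.0589 and 0.163% in control. The testis form Cox6b2 had 27.9, 17.9 and 50.04 in Klf5 LKO, against 27.6, 37.9 and 27.4 in control. The member nearest above that limit was Cox7a1, and Cox6b2 was the nearest below it.

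Complex V, the ATP synthase, had the lowest median of the 5 complexes, -0.20 on the log2 scale, with 16 of 17 genes lower and 0 called. Of the 17 names Atp5s and Atp5sl are not ATP synthase subunits, and without them 15 of 15 were lower, with the same median. The count of lower genes was between 13 and 16 of 17 under each alternative and whichever library was left out. The median was -0.09 without Klf5 LKO 1, -0.10 without control 1 and -0.27 without Klf5 LKO 3. Whether complex V differed from the other complexes was not tested.

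Over all tested genes 7.88% did not overlap with Klf5 LKO lower. In the catalytic head of the ATP synthase 2 of 5 genes did so, which was not tested against that share. Atp5a1 (chromosome 18, 77773729 to 77782869, plus strand), its alpha subunit, had 9342, 12029 and 10656 normalised counts in Klf5 LKO, against 12411, 13386 and 12793 in control. All 3 Klf5 LKO values were lower than all control values, with Klf5 LKO 2 nearest to them. Atp5a1 was the gene with an unadjusted p under 0.05 (0.0478), its log2 fold change being -0.28 (SE 0.13, 95% interval -0.55 to -0.0032), and did not pass (adjusted p = 0.452). Atp5b (chromosome 10, 128083273 to 128090391, plus strand), the catalytic beta subunit, had 11158, 15252 and 14438 in Klf5 LKO, against 15638, 16220 and 15259 in control. Klf5 LKO 2 and control 3 were almost level, and Klf5 LKO 1 stood well below the rest. The log2 fold change of Atp5b was -0.22 (SE 0.14, adjusted p = 0.615), and -0.08 without Klf5 LKO 1. The other 3 head genes, for the gamma, delta and epsilon subunits (Atp5c1, Atp5d and Atp5e), were at -0.20, -0.22 and -0.14. The median of the 5 head genes was -0.22.

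The c ring, the proton-driven rotor, is made of 1 mature protein encoded by 3 genes that differ in their import sequence. Atp5g2 had 1624, 2763 and 3195 normalised counts in Klf5 LKO, against 4040, 2965 and 3019 in control. Klf5 LKO 1 was the lowest and control 1 the highest, and the other 4 libraries lay close together. Its log2 fold change was -0.44 (SE 0.22, 95% interval -0.93 to 0.04, adjusted p = 0.512), and -0.15 without Klf5 LKO 1. Atp5g3 had 1468, 1894 and 2371 in Klf5 LKO, against 2512, 2350 and 2126 in control (log2 fold change -0.31, adjusted p = 0.561). Atp5g1 had 1650, 1607 and 1948 in Klf5 LKO, against 2036, 1862 and 1647 in control (log2 fold change -0.09, adjusted p = 0.866). The 3 summed to 4742, 6264 and 7515 in Klf5 LKO, against 8588, 7177 and 6791 in control, with overlapping groups. Atp5g2 made up 34.2, 44.1 and 42.5% of that sum in Klf5 LKO, against 47.0, 41.3 and 44.4% in control. Reads from the shared coding part of these genes, or from processed copies of respiratory chain genes elsewhere in the genome, may have been split among copies, since the counting method is not given.

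The remaining complex V genes also leaned lower without passing. The 4 genes of the peripheral stalk, which holds the head still, had a median log2 fold change of -0.15, from -0.21 for Atp5h and Atp5j to -0.06 for Atp5f1. The 3 genes for small membrane subunits that join synthase dimers (Atp5j2, Atp5k and Atp5l) had a median of -0.11. Atp5sl had 191, 309 and 344 in Klf5 LKO, against 403, 283 and 428 in control (log2 fold change -0.42, adjusted p = 0.630), and Atp5s was at 0.18. Within each library, the summed counts of complex V were 89.2, 111 and 95.1% of those of complex I in Klf5 LKO, against 104, 115 and 113% in control. Klf5 LKO 2 lay within the control range and the other Klf5 LKO libraries below it.

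**Figure D3:**
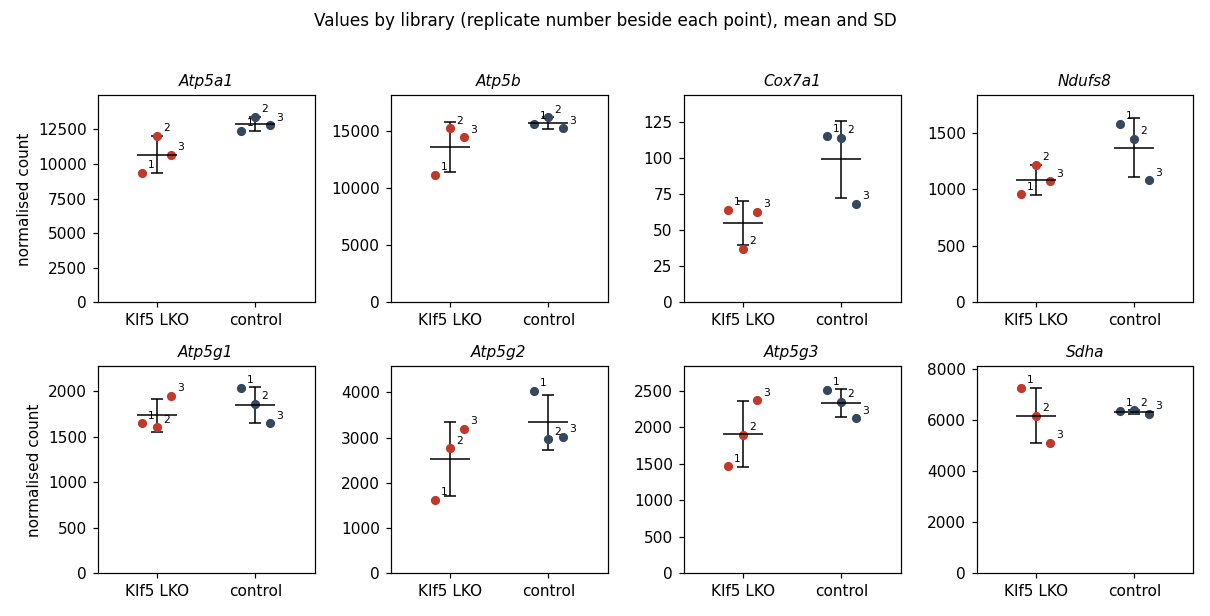
Normalised counts by library for 8 respiratory chain genes, with Klf5 LKO (red) left of control (dark), the replicate number beside each point, and the group mean with its SD (n = 3 each). The groups are apart for Atp5a1, Atp5b and Cox7a1 and overlap for Ndufs8, for the 3 c ring genes and for Sdha, where Klf5 LKO spans 5113 to 7261.

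The subunits varied together from library to library, in a pattern that crossed the groups. Klf5 LKO 3 held the highest value for 29 of the 77 genes and control 1 for 38, together 67 (87.0%), where these 2 libraries held the highest value for 31.6% of all tested genes. Klf5 LKO 1 held the lowest value for 30 (39.0%), Klf5 LKO 2 for 25 (32.5%) and control 3 for 16 (20.8%). Of all tested genes, 24.5, 14.0 and 15.6% were lowest in these libraries. The median deviation of the 77 genes from their own mean log2 value was -0.16, -0.12 and 0.17 in Klf5 LKO, against 0.20, -0.02 and -0.11 in control. Their share of all reads was 0.917, 0.926 and 1.09% in Klf5 LKO, against 1.12, 1.00 and 0.972% in control. Klf5 LKO 3 lay farther from Klf5 LKO 1 and 2, and control 1 farther from control 2 and 3, than the median log2 fold change between groups, -0.06, while Klf5 LKO 1 and 2 lay closer together than that.

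**Figure D4:**
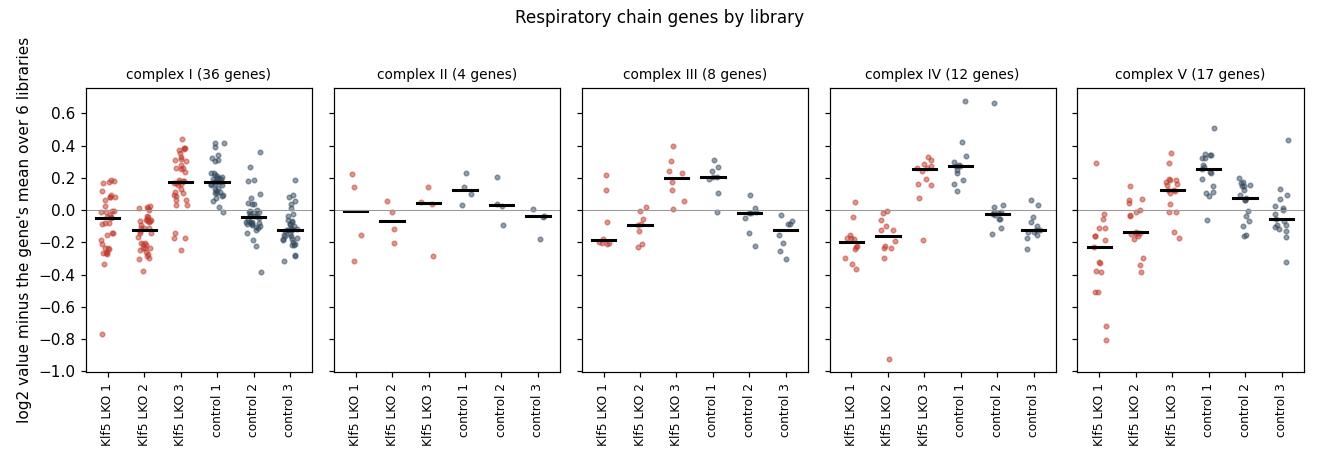
Log2 value of each respiratory chain gene minus its mean over the 6 libraries, by complex, with Klf5 LKO in red, control in dark and the median as a bar. Klf5 LKO 3 and control 1 lie above 0 in all 5 complexes, with medians of 0.17 and 0.20 over all 77 genes.

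The same pattern was present in other transcripts of up to 700 bases, but not in all longer bins where the respiratory chain genes showed it. For the 32 respiratory chain genes with transcripts of up to 700 bases, the median deviation was -0.17, -0.17 and 0.25 in Klf5 LKO, against 0.26, -0.03 and -0.11 in control. For the 176 other genes of that length with a mean of at least 50, it was -0.16, -0.10 and 0.20 in Klf5 LKO, against 0.20, -0.03 and -0.07 in control. For the 3323 genes over 4000 bases it was 0.02, 0.04 and -0.03 in Klf5 LKO, against -0.04, 0.02 and 0.05 in control, so the libraries that were high for short transcripts were not high for long ones. Over 1500 and up to 2500 bases, the median deviation of 12 respiratory chain genes was -0.17, -0.05 and 0.06 in Klf5 LKO. In control it was 0.11, 0.01 and -0.05. The median of the 2692 other genes of that length lay between -0.01 and 0.02 in every library. Marker scores are log2 values averaged over the markers with a mean of at least 10, 6 of 13 for leukocytes and 12 of 20 for hepatocytes. The leukocyte marker score stood at 6.98, 3.53 and 4.84 in Klf5 LKO, against 8.21, 7.23 and 3.98 in control. The hepatocyte score stood at 8.78, 8.21 and 8.99 in Klf5 LKO, against 8.68, 8.32 and 8.26 in control. Control 1 had the highest leukocyte score and Klf5 LKO 3 the fourth, and Klf5 LKO 3 had the highest hepatocyte score, followed by Klf5 LKO 1 and then control 1. The part of transcript length, leukocytes or hepatocytes in the subunit values was not tested. With the hepatocyte score as a term the median of the 77 was -0.16 and that of complex V -0.25, and with the leukocyte score they were -0.01 and -0.18. No gene of the 77 was called in either fit.

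**Figure D5:**
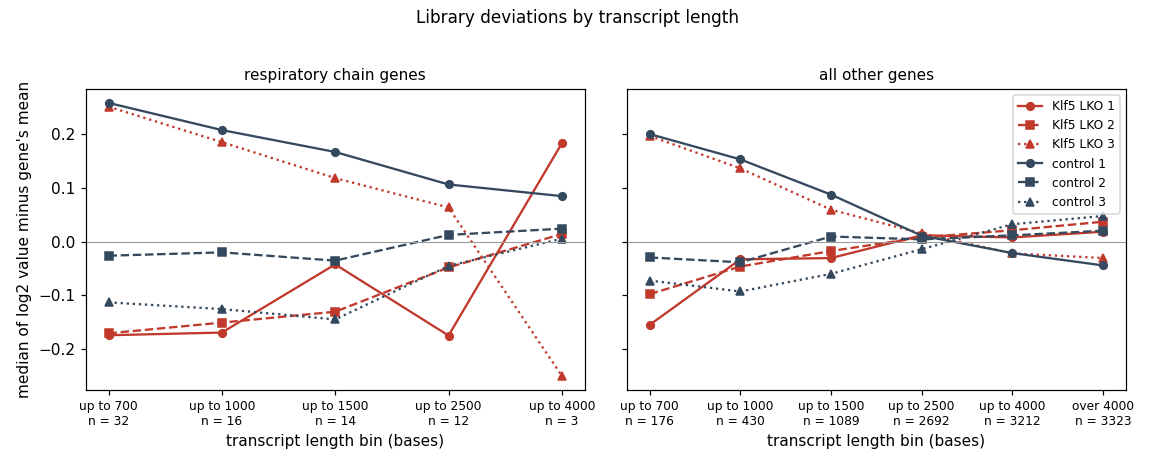
Median deviation of log2 values from each gene's own mean, by library and transcript length, for the respiratory chain genes (left) and all other genes with a mean of at least 50 (right), with the number of genes under each bin. Klf5 LKO 3 and control 1 stand at 0.25 and 0.26 for the 32 respiratory chain genes of up to 700 bases and at 0.20 each for the 176 others; the longest bin on the left holds 3 genes.

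Other subunits and carriers fall outside the naming rule. Of 7 tested, 0 were called in limma and 0 in DESeq2, with 0 at an unadjusted p under 0.05 in limma, and their median log2 fold change was -0.02. Cytochrome c1 of complex III (Cyc1) was at -0.09, and the mobile electron carrier cytochrome c (Cycs) had 3311, 2763 and 3602 in Klf5 LKO, against 3534, 3490 and 2946 in control (log2 fold change -0.05). The ATP synthase inhibitor Atpif1 was at -0.02 and the small synthase subunit Usmg5 at 0.07.

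The factors that assemble the complexes did not pass either. Of 14 complex I assembly genes 0 were called by limma or DESeq2 and 0 had an unadjusted limma p under 0.05, with a median log2 fold change of -0.12. Ecsit, an assembly factor that also acts in innate immune signalling, had 338, 241 and 322 in Klf5 LKO, against 344, 495 and 390 in control (log2 fold change -0.45, adjusted p = 0.526). Nubpl, which delivers iron-sulphur clusters to complex I, had 140, 225 and 214 in Klf5 LKO, against 234, 333 and 259 in control (log2 fold change -0.53, adjusted p = 0.530). For both the groups did not overlap. Of 31 tested assembly genes for complexes II to V, 0 were called by limma or DESeq2 and 0 had an unadjusted limma p under 0.05, with a median of -0.04. Atpaf1, a chaperone of the ATP synthase head, had 1283, 903 and 983 in Klf5 LKO, against 900, 744 and 884 in control, without overlap (log2 fold change 0.31, adjusted p = 0.561). Coa4, a complex IV assembly factor, was at -0.77 (adjusted p = 0.600).

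Among regulators of mitochondrial biogenesis, 17 were tested. In limma 0 were called, with 1 at an unadjusted p under 0.05, and DESeq2 called 1, with a median log2 fold change of -0.01 over the 17. The gene was Myc, the growth-promoting transcription factor, with 1979, 1909 and 1918 normalised counts in Klf5 LKO, against 1172, 1067 and 1656 in control. Every Klf5 LKO value was above every control value. Its log2 fold change was 0.60 (limma adjusted p = 0.162, DESeq2 adjusted p = 0.0488). The coactivator Ppargc1a had 413, 432 and 539 in Klf5 LKO, against 315, 409 and 459 in control (log2 fold change 0.23, adjusted p = 0.752), and Tfam, which packs and transcribes mitochondrial DNA, was at 0.08.

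In the pathways that feed the chain, 0 of 25 genes for the TCA cycle and pyruvate entry were called by limma or DESeq2, with 1 at an unadjusted limma p under 0.05 and a median log2 fold change of -0.11. That 1 was Cs, citrate synthase, the entry enzyme of the cycle, with 3900, 4944 and 4204 in Klf5 LKO, against 4889, 5824 and 5201 in control (log2 fold change -0.29, adjusted p = 0.444). Klf5 LKO 2 lay above control 1. Pcx, pyruvate carboxylase, was at -0.49 (adjusted p = 0.521). Of 26 genes for mitochondrial import, cristae and carriers, 0 were called by either tool, with 1 at an unadjusted limma p under 0.05 and a median of -0.07. Vdac1, the main channel of the outer membrane, had 3021, 3463 and 3518 in Klf5 LKO, against 4336, 5001 and 3968 in control. The groups did not overlap, and the log2 fold change was -0.41 (SE 0.13, adjusted p = 0.248). Of 10 tested antioxidant and uncoupling genes 0 were called by either tool, with 1 at an unadjusted limma p under 0.05 and a median of -0.02. Nnt, the transhydrogenase that makes mitochondrial NADPH, had 495, 621 and 483 in Klf5 LKO, against 795, 683 and 672 in control (log2 fold change -0.43, adjusted p = 0.396), without overlap, and the peroxiredoxin Prdx5 was at 0.25 (adjusted p = 0.583).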

How the data were processed

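Per the labels' protocols, each of 6 libraries was made from 4 ng of total RNA by 10 rounds of cDNA pre-amplification and 7 rounds of enrichment PCR. The submitters' processing notes name TopHat, Bowtie2, DESeq2 and the mm10 build; for the counter and the annotation, the tool is not given in the sources used here. The authors deposited 1 signal per gene in each library, a read count scaled by that library's size factor. Their deposited comparison table gives mean signal, log2 fold changes with errors (judged shrunken, from the values), a test score, and raw and adjusted p-values.

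All signal values (100%) were whole multiples of 1 read within 0.001, so reads were recovered for edgeR 4.0.16, DESeq2 1.42.0 and limma-voom as alternatives. For the main test, limma 3.58.1 in R 4.3.3 (eBayes with trend) was fitted to log2(value + 1) of 13490 genes whose mean reached 10, two-sided, Benjamini-Hochberg adjusted over them, threshold 0.05. Fold changes are on that scale, and adjusted p-values are from this fit unless another tool is named. The scripts were tested on simulated data. No 2 replicates were duplicates (chi-square per degree of freedom 14.8 or more). PCR reads carry no molecular identifiers. Positions (76 of 77 genes) and transcript lengths were read from GENCODE M21 (GRCm38).

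Members, gene lists and tests were chosen with earlier results of these data known. Named genes were any called, the 2 highest and 2 lowest fold changes of each complex, its highest level per kilobase, 11 core subunits, isoform families, up to 6 without overlap, and per list up to 3 called or else the 2 with the smallest p. Other genes were named after their values were seen. Some genes that this rule names are not reported here.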

Additional observations from a re-analysis of the deposited data

How the results depend on the processing

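The counts of 0 genes called higher and 0 called lower held under every alternative: scaling by TMM or upper quartile, pseudocounts of 0.5 and 5, the whole table or genes with a mean from 50 up, edgeR, DESeq2, limma-voom, a replicate block, a leukocyte or hepatocyte score term, each library left out, and members from a mean of 10 up. The lowest adjusted p of a member was 0.271, without Klf5 LKO 2. For the 36 named subunits all 648 recomputed values stayed short of the threshold. With 1 library left out, the median log2 fold change ran from -0.18 to 0.03 over all 77 genes, -0.10 to 0.08 for complex I, -0.13 to -0.05 for II, -0.15 to 0.07 for III, -0.24 to 0.06 for IV and -0.27 to -0.09 for V. The log2 fold change of Klf5 was -0.90 with the hepatocyte term (adjusted p = 0.0505) and between -0.98 and -0.84 with 1 library left out, losing its call without control 1, 2 or 3 (adjusted p = 0.0671, 0.0702 and 0.0573), where fewer samples were fitted. Correlations of deviations were 0.18, -0.01 and 0.11 for same-numbered libraries and between -0.20 and 0.14 for the other pairs. So few values cannot decide whether the numbers mark pairs. With the replicate block the median of the 77 was -0.06. Calls over all genes were 88, against 335 with DESeq2, 110 with the block, 61 with the leukocyte term, 36 with the hepatocyte term and between 14 (without control 2) and 103 (without Klf5 LKO 1) with 1 library left out.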
